A study of Mus musculus with 12 samples.

Results

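The vomeronasal receptor genes form 2 families of G protein-coupled receptors, Vmn1r and Vmn2r, which detect pheromones and other social odours. Their share of the H3K9me2 regions of mouse prefrontal cortex is described here. Members were the regions that overlapped a gene whose symbol starts with Vmn1r or Vmn2r, or, where a region overlapped no named gene, lay closest to the start of one, on the autosomes and counted once per start and end. In the deposited table that compares FAD with WT mice, 165 of 33787 regions were members, 90 for 56 Vmn1r genes and 75 for 45 Vmn2r genes. The table that compares FAD-BIX with FAD mice held 181 of 43680, 94 for 54 Vmn1r genes and 87 for 48 Vmn2r genes. The tables joined gave 253 distinct coordinates and 119 genes, and 93 coordinates were the same in both.

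H3K9me2, histone H3 dimethylated at lysine 9, was profiled with ChIP-seq (sequencing of immunoprecipitated chromatin) in punches of prefrontal cortex. The 3 groups were wild-type mice (WT), mice that carry mutations of familial Alzheimer's disease (FAD), and such FAD animals treated with BIX01294 (FAD-BIX), an inhibitor of the H3K9 methyltransferases EHMT1 and EHMT2. All were C57BL/6 and 5 to 6 months old, with 2 mice in each group and 1 ChIP and 1 input (unprecipitated chromatin) library from each mouse, 12 libraries in all. The mutations and the promoter that drives them, the sex, and the dose and vehicle of BIX01294 are not given in the sources used here, and neither is any vehicle treatment of the FAD or WT mice. The same FAD mice serve both comparisons. A bulk punch mixes cell types, so less mark per cell and fewer cells with the mark cannot be told apart.

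Vmn1r receptors have coding sequence in a single exon and signal through the G protein Gαi2, whereas Vmn2r receptors carry a large extracellular ligand-binding domain encoded by several exons and signal through Gαo. Each sensory neuron of the vomeronasal organ expresses 1 or a few of these genes and keeps the rest silent, and the families lie in tandem arrays of near-identical copies. Brain cortex does not use them as receptors, and H3K9 methylation is a mark of silent chromatin known to cover chemoreceptor arrays. Reads from copies that resemble each other can be split between them, and no source used here states how reads matching several places were handled. Values of single genes in these arrays are therefore uncertain.

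Promoter windows of both families were poor in the bases G and C. RefSeq (GRCm38.p6) windows of 300 bases around annotated starts were matched for 206 Vmn1r and 116 Vmn2r genes. Their median GC content was 36.0% for Vmn1r and 38.0% for Vmn2r, beside 35.0% for the Olfr odorant receptors and 52.7% for all 32851 windows. The median number of CG dinucleotides was 1 in each of the 3 receptor families and 7 over all windows. The letters TATAAA, or TTTATA for the other strand, were present in 42.2% of Vmn1r, 23.1% of Vmn2r, 41.0% of Olfr and 13.6% of all windows. The 250 bases before the start are printed below, 5′ to 3′, for 2 genes of each family, taken from those named later for regions with small p-values. Capitals mark each CG, and neither TATAAA nor TTTATA occurs in these stretches.
Vmn1r90, chr7:14562172-14562421, minus strand: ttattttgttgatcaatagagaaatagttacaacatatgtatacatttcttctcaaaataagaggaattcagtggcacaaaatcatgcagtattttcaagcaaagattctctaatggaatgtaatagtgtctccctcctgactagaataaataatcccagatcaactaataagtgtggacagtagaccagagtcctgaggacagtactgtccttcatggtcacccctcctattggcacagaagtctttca
Vmn1r206, chr13:22621036-22621285, minus strand: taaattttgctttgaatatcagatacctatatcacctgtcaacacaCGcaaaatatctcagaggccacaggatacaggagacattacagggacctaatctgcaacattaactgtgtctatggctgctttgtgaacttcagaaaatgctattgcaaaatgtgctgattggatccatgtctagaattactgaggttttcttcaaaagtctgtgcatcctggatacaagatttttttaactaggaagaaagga
Vmn2r117, chr17:23479598-23479847, minus strand: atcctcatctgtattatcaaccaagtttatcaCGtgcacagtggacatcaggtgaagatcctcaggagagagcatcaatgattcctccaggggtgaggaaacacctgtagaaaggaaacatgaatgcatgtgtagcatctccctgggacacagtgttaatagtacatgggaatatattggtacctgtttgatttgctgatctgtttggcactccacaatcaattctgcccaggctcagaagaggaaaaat
Vmn2r120, chr17:57545315-57545564, minus strand: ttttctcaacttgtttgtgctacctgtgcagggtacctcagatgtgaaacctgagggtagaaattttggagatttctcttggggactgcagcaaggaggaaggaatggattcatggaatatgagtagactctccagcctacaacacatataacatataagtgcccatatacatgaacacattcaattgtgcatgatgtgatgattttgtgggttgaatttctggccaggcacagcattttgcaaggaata

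Vmn1r206 and Vmn2r117 each hold 1 CG in this stretch, and Vmn1r90 and Vmn2r120 hold none. A region of either table touched 1 of 206 Vmn1r windows (0.485%), that of the pseudogene Vmn1r-ps103, and 1 of 117 Vmn2r windows (0.855%), that of Vmn2r117. Over all 31396 autosomal windows the share was 0.733%, and for Olfr it was 28 of 942 (2.97%). No window was matched for Vmn1r2, Vmn1r3, Vmn1r16, Vmn1r238 or Vmn2r125, all named below. At Vmn2r117 the whole printed stretch lies inside the region that touched its window (chr17:23479482-23479854). That region was called in the library of FAD-BIX 1 alone and held 14 and 17 ChIP reads in FAD and 21 and 26 in FAD-BIX, beside 0 to 2 input reads in each library. The FAD-BIX reads were the higher ones without overlap, with a log2 fold of 1.01 (edgeR's quasi-likelihood test, Benjamini-Hochberg adjusted p = 0.897).

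Depth and label checks apply to every value below. ChIP libraries held 20.4 to 26.6 M reads and inputs 13.9 to 23.8 M, and each ChIP library put 0.0137% to 0.0283% of its reads in the members, with a median of 10 to 21 ChIP and 2 to 5 input reads per member. The library labelled FAD 1 goes against its label at Thy1, a neuronal gene whose promoter often drives brain transgenes. Input over the 3 Thy1 regions was 3.97 RPM (reads scaled to library depth) in FAD 1 but 366 in FAD 2 and 403 and 203 in the FAD-BIX mice. Over the 1 Thy1 region of the other table, FAD 1 had 0.627 RPM, near the WT inputs (0.0842 and 0.692) and far from FAD 2 (24.1). FAD 1 ChIP also had 66.8 RPM over the regions of 5 of 10 heart muscle marker genes, where the other 3 libraries of that table had 8.50 to 20.4. The part of either in the results was not tested. The library of FAD 2 differed in another way, since 60.3% of the FAD and WT regions were called in its ChIP library alone, and 53.3% of the members. The family comparisons, and other results that these libraries change, are given with and without them. None of 4 genes listed as markers of vomeronasal sensory neurons (Gnai2, Gnao1, Omp, Trpc2) had a region in either table. The same held for the 4 listed markers of microglia. Regions of a silencing mark give no direct check of the tissue.

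Coverage of the families was uneven along the genome. RefSeq annotates 231 protein-coding Vmn1r and 123 protein-coding Vmn2r genes on the autosomes, and 27.7% and 43.9% of them had a region in either table. All 7 Vmn2r genes of chromosome 3 had one, as did 19 of 32 (59.4%) on chromosome 17 and 28 of 51 Vmn1r genes (54.9%) on chromosome 6. On chromosome 7, which carries the most genes of both families, the shares were 13 of 126 Vmn1r (10.32%) and 14 of 52 Vmn2r (26.9%). None of the 11 coding Vmn2r genes of chromosome 5 had a region. Most genes with a region had a single one, 37 of 56 Vmn1r and 26 of 45 Vmn2r genes in the FAD and WT table.

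The families also differed in where their regions lay relative to the genes. Of the Vmn2r regions, 39 of 75 and 44 of 87 overlapped a Vmn2r gene, 31 and 37 of them in introns. Only 1 Vmn1r region in each table overlapped a Vmn1r gene. The median distance from the start of the gene was 6926.5 bp for Vmn1r and 14471 bp for Vmn2r regions in the FAD and WT table, beside 39713 bp over all its regions. Few members lay within 2 kb of a start, 10 of 165 (6.06%) and 13 of 181 (7.18%), against 5.93% and 5.81% of all regions. Member regions had median widths of 333 and 337 bp, close to the 329 and 325 bp of all regions. Gene lengths and the spacing of the arrays can enter these distances as well as the mark, and the part of each was not tested.

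Vomeronasal regions with a call in every ChIP library sat in 3 compact blocks, named here by their closest genes. These were Vmn1r2 and Vmn1r3 at the start of chromosome 4, Vmn2r125 at the end of chromosome 4, and Vmn1r238 at the start of chromosome 18. In the FAD and WT table, 19 of 165 members (11.5%) were called by the authors in at least 2 of the 4 ChIP libraries, against 5.12% of all regions, and 10 were called in all 4, against 42 of all 33787 (0.124%). In the FAD-BIX and FAD table, 11 of 94 Vmn1r (11.7%) and 8 of 87 Vmn2r regions (9.20%) were called in at least 2 libraries, against 6.59% of all, and 7 members in all 4, against 54 of 43680 (0.124%). Of the members called in at least 2 libraries, the blocks of Vmn1r2, Vmn2r125 and Vmn1r238 held 4, 3 and 4 in the FAD and WT table. In the FAD-BIX and FAD table they held 3, 4 and 3, so most of the excess over all regions lay in the blocks. All of the 10 and 7 called in all 4 belong to the 3 blocks. None of these overlapped a named gene, and each was assigned to its receptor gene by the closest start. Vmn2r115 on chromosome 17 had a region called in 3 libraries of the FAD and WT table. By contrast, 0 of 568 and 0 of 718 regions of Olfr genes were called in all 4 libraries. The calls are read as a description of these tables, since a call needs enough reads and wide regions gather more.

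**Figure D1:**
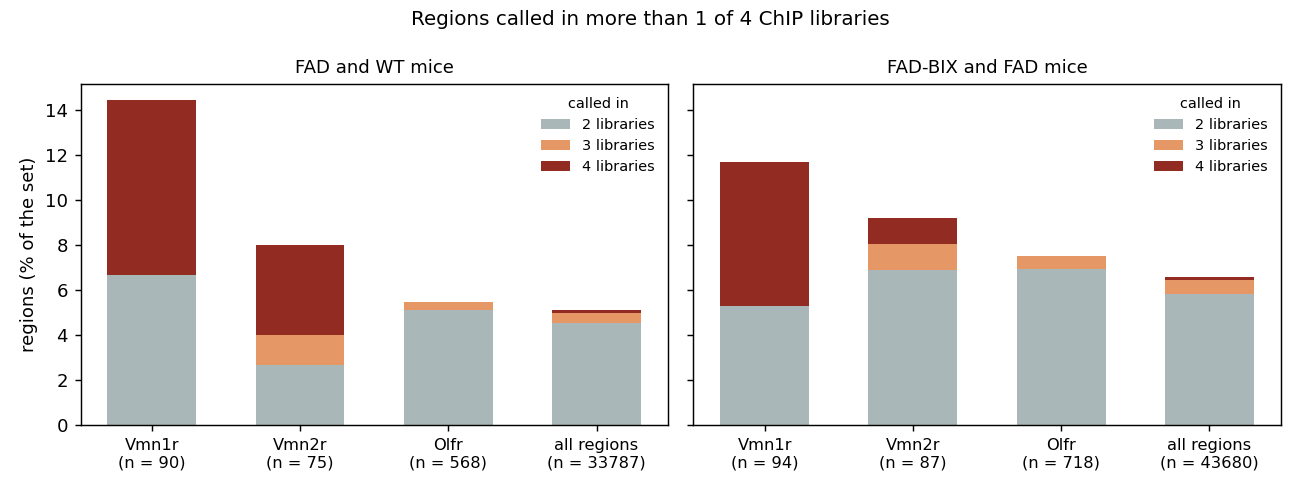
Share of regions (% of each set, y axis) called in 2, 3 or 4 of the 4 ChIP libraries of a table, for Vmn1r, Vmn2r and Olfr genes and for all regions. The dark segments, for regions called in every library, are visible for the Vmn1r and Vmn2r sets and are 0 for Olfr.

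The block of Vmn1r2 and Vmn1r3 spans chr4:3163427-3182651 and begins 113 kb after the first region on chromosome 4. Its widest region, 4775 bp at chr4:3174672-3179447 and 4976 bp from the start of Vmn1r2, held 263 and 449 ChIP reads in WT and 424 and 462 in FAD. The inputs held 82, 53, 46 and 23 reads in the same order. The raw reads of WT and FAD overlapped, while RPM did not, with 10.7 and 16.9 in WT and 17.0 and 22.2 in FAD. The log2 fold was -0.03 (edgeR's quasi-likelihood test, adjusted p = 0.9996). The neighbouring region of Vmn1r3, 2806 bp at chr4:3179832-3182638, held 130 and 233 ChIP reads in WT and 250 and 239 in FAD. In the other table the wide Vmn1r2 region, there 4876 bp, had 338 and 352 reads in FAD-BIX beside 426 and 466 in FAD, lower in raw reads without overlap but with a log2 fold of 0.02 once scaled (edgeR, adjusted p = 0.997).

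Vmn1r238 is the single Vmn1r gene that RefSeq annotates as coding on chromosome 18, and with 7 regions in each table it had more than any other Vmn1r gene. In the FAD and WT table none of the 7 overlapped the gene, and each was assigned to it as the closest start. Their distances from that start were 4753, 8149, 10032, 15598, -74802, -78631 and -103034 bp (negative before the start). The Vmn1r238 block starts 102 kb after the first region of chromosome 18. One region of 3925 bp held 340 and 548 ChIP reads in WT, 510 and 713 in FAD, and 465 and 435 in FAD-BIX. Input reads there were 64 and 123 in WT, 43 and 62 in FAD, and 67 and 53 in FAD-BIX. The ranges of WT and FAD overlapped, with log2 folds of 0.07 for FAD against WT (edgeR, adjusted p = 0.9996) and -0.01 for FAD-BIX against FAD (adjusted p = 0.999). It was called in every ChIP library of both tables.

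Vmn2r125, annotated by RefSeq as a pseudogene, had 5 regions in each table at chr4:156340167-156358117, the last regions of that chromosome. The one with the most reads, 578 bp at chr4:156356709-156357287, lay 7077 bp from the start of the gene and did not overlap it. It held 284 and 286 ChIP reads in WT, 439 and 297 in FAD, and 248 and 217 in FAD-BIX. Its input reads were high as well, 80 and 69 in WT, 96 and 42 in FAD, and 53 and 111 in FAD-BIX. Over the whole block, input was 1.20 to 2.68 RPM per kb, while the Vmn1r2 and Vmn1r238 blocks had 0.55 to 1.30. In the 578 bp region, FAD-BIX 2 had the most input reads and the fewest ChIP reads. FAD 1 had the most ChIP reads there and the next most input reads. The part of the high input in the calls was not tested.

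Position near the end of a chromosome was shared by these blocks although the rule did not use it. Within 200 kb of the first or last region of their autosome lay 12.2% of Vmn1r and 10.7% of Vmn2r regions of the FAD and WT table, against 0.917% of all autosomal regions. All 10 members called in 4 libraries did so, and so did 8 of the other 29 autosomal regions called in 4 libraries. Together the 3 blocks made up 17 of 165 members and 23.0 of the members' 76.7 kb of summed width. They held 49.3% to 56.7% of the members' ChIP reads and 34.5% to 45.5% of their input reads in the 4 mice. Of the FAD-BIX and FAD regions, 17 of 181, with 23.1 of 83.4 kb, held 47.1% to 55.4% of ChIP reads. Sums over a family thus follow a few regions.

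The large arrays beyond these blocks held many regions with few reads each. On chromosome 6, the array from Vmn1r5 to Vmn1r29 (1.36 Mb, 25 coding genes) had 28 and 23 regions. Over the 28 regions, ChIP reads summed to 347 and 402 in WT and 438 and 472 in FAD, with input reads of 161 and 128, and 75 and 62. Over the 23 regions of the other table, they summed to 409 and 462 in FAD and 310 and 345 in FAD-BIX. ChIP over input, as log2 of summed RPM, was 1.06 and 1.03 in WT and 1.75 and 2.47 in FAD. FAD lay above WT without overlap, as over all regions of the table and in other arrays such as Vmn1r41 to Vmn1r51. Input in RPM was lower in FAD both here and over all regions.

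The smaller Vmn1r arrays on chromosome 6 had lower sums. The array from Vmn1r33 to Vmn1r38 had 62 and 51 ChIP reads in WT and 53 and 72 in FAD, with 15 and 22 and then 21 and 14 input reads, and the groups overlapped also in log2 ChIP over input (2.00 and 0.60 in WT, 0.54 and 1.90 in FAD). Vmn1r41 to Vmn1r51 had 56 and 87 ChIP reads in WT and 82 and 118 in FAD, with 37 and 23 and then 15 and 9 input reads. There ChIP reads overlapped, but log2 ChIP over input did not, with 0.55 and 1.30 in WT and 1.65 and 3.25 in FAD. Over the regions of the other table, Vmn1r41 to Vmn1r51 had 99 and 149 ChIP reads in FAD and 89 and 81 in FAD-BIX, and Vmn1r33 to Vmn1r38 had 53 and 83 and then 54 and 41. The Vmn2r array on the same chromosome, Vmn2r22 to Vmn2r27, had 98 and 182 ChIP reads in WT and 104 and 158 in FAD. Its 9 regions of the other table had 128 and 146 in FAD and 118 and 96 in FAD-BIX.

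Chromosome 13 carries Vmn1r189 to Vmn1r223 (34 coding genes in the span), with 22 and 31 regions. Over the 22 regions, ChIP reads were 264 and 347 in WT and 287 and 459 in FAD, and input reads were 100 and 102, and 58 and 50. Over the 31 regions, ChIP reads were 369 and 565 in FAD and 423 and 427 in FAD-BIX, and the groups overlapped. Chromosome 17 holds the largest Vmn2r array, Vmn2r90 to Vmn2r117, interleaved with Vmn1r genes. Its 30 regions in the FAD and WT table summed to 332 and 482 ChIP reads in WT and 422 and 602 in FAD, with 206 and 131 and then 101 and 69 input reads. Its 31 regions of the other table held 399 and 627 in FAD and 379 and 359 in FAD-BIX. WT and FAD overlapped in ChIP reads. Input was 8.67 and 7.56 RPM in WT and 7.04 and 4.57 in FAD, and it was lower in FAD over all regions too.

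On chromosome 7 the arrays gave low sums for their size. The span from Vmn1r127 to Vmn1r175 holds 47 coding genes but had 9 and 7 regions, with 62 and 211 ChIP reads in WT and 110 and 211 in FAD, and, over the 7 of the other table, 93 and 216 in FAD and 96 and 95 in FAD-BIX. Vmn2r65 to Vmn2r79 had 33 and 65 reads in WT and 56 and 144 in FAD over 6 regions, and 72 and 170 in FAD and 91 and 78 in FAD-BIX over 8 regions. The mixed array from Vmn2r37 to Vmn1r90 summed to 68 and 124 in WT and 110 and 179 in FAD, and, over the 10 regions of the other table, to 99 and 162 in FAD and 99 and 90 in FAD-BIX. In each of these 3 arrays the reads of WT and FAD overlapped, and the mice within WT and within FAD lay far apart, while the FAD-BIX mice lay close together. On chromosome 3, Vmn2r1 to Vmn2r7, the relatives of the Vmn2r2 type that are co-expressed with other Vmn2r genes, summed to 95 and 88 in WT, 49 and 131 in FAD over 8 regions. The last of the arrays with 5 or more regions, Vmn2r118 to Vmn2r120 on chromosome 17, summed to 84 and 59 in WT and 75 and 112 in FAD.

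**Figure D2:**
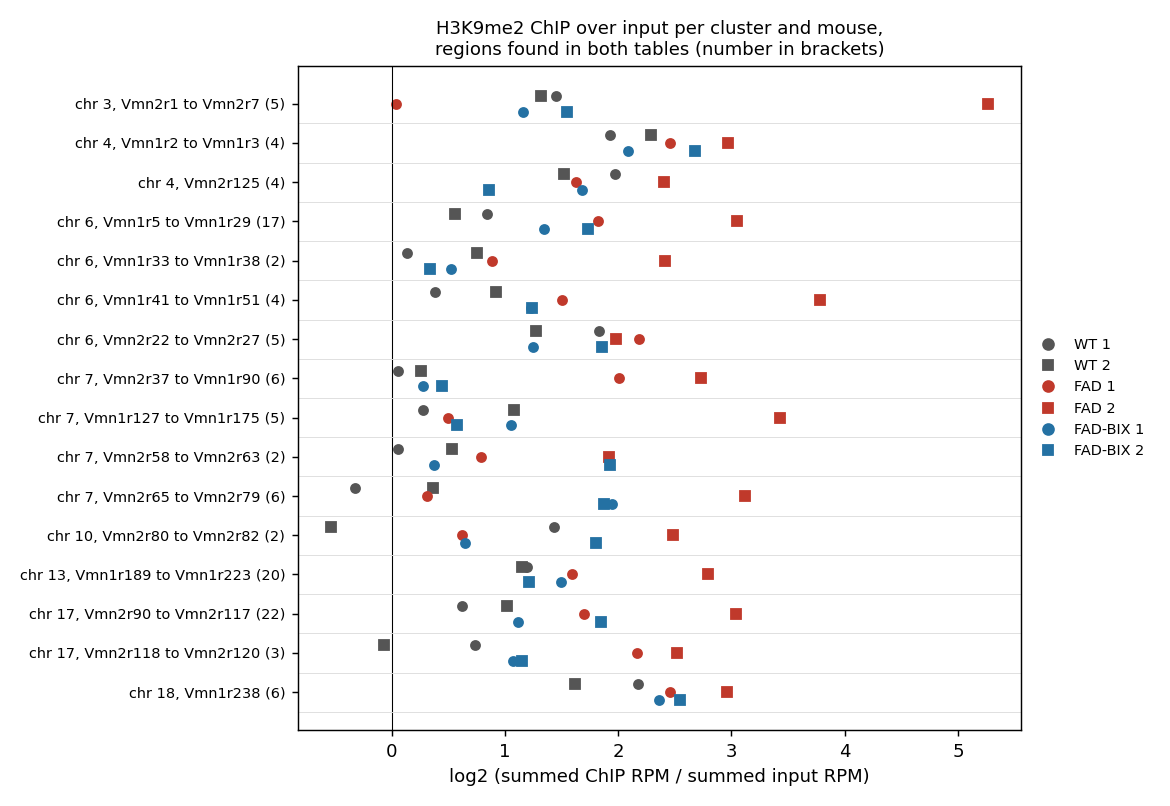
Log2 of summed ChIP RPM over summed input RPM (x axis) for each cluster of receptor genes (y axis, number of regions in brackets), over the regions found in both tables, with 1 point per mouse. Clusters with a single matched region are left out. FAD 2 lies to the right of the other mice in most clusters, and the blocks of Vmn1r2, Vmn2r125 and Vmn1r238 have WT values between 1.52 and 2.29.

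Summed over each family, ChIP exceeded input in every mouse. For Vmn1r, log2 ChIP over input was 1.55 and 1.59 in WT and 1.97 and 2.78 in FAD, from 2031, 3151, 2779 and 3666 ChIP reads and 675, 682, 408 and 386 input reads. Vmn2r stood at 1.31 and 1.27 in WT and at 1.34 and 2.54 in FAD, from 1334, 1573, 1609 and 1941 ChIP reads. FAD lay above WT in both families without overlap, by 0.81 for Vmn1r and 0.65 for Vmn2r (log2, n = 2 and 2). The exact permutation p was 0.333 for each, two-sided, and that is the smallest such a design can give, so this comparison cannot pass 0.05. All regions of the table differed almost as much, with 1.09 and 1.00 in WT and 1.34 and 2.25 in FAD. Relative to them the difference was 0.06 for Vmn1r and -0.09 for Vmn2r. Outside the 3 blocks, the 148 members of both families together stood at 1.00 and 1.17 in WT and 1.26 and 2.59 in FAD. Without the regions called in 3 or 4 libraries, the FAD minus WT differences were 0.87 for 83 Vmn1r and 0.78 for 71 Vmn2r regions. Of the 90 Vmn1r and 75 Vmn2r regions, 43 and 45 had been called in FAD 2 alone and so entered through that mouse. Without them the differences were 0.54 for 47 Vmn1r and 0.18 for 30 Vmn2r regions, by a filter that uses the FAD 2 values.

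Much of the FAD difference came from 1 mouse. Without FAD 2 it was 0.40 for Vmn1r and 0.05 for Vmn2r, and without FAD 1 it was 1.22 and 1.25.

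**Figure D3:**
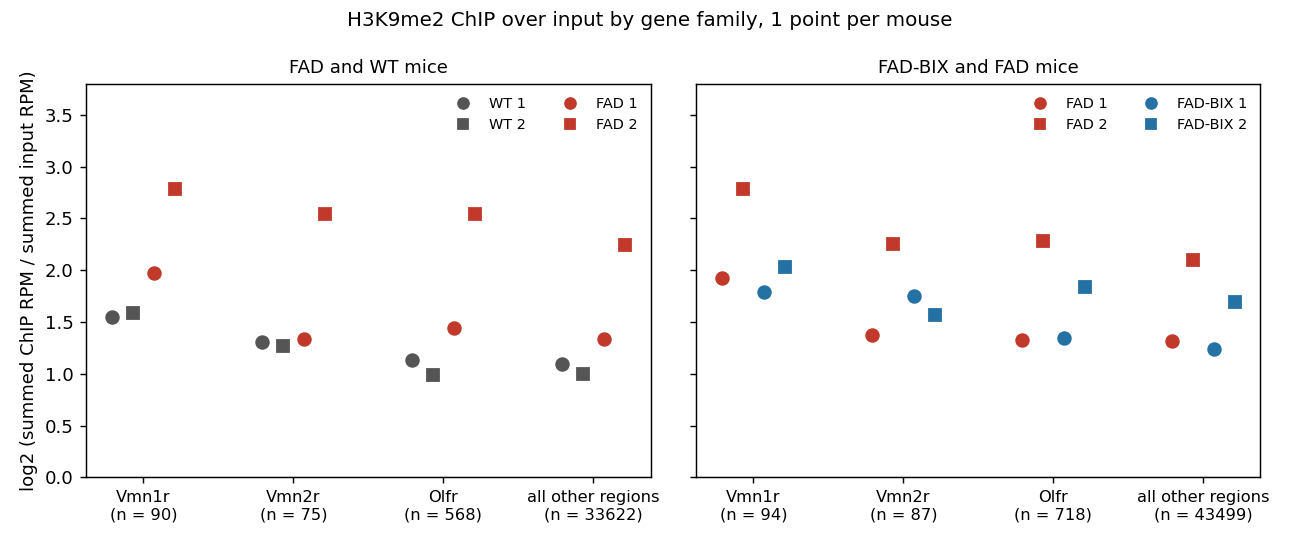
Log2 of summed ChIP RPM over summed input RPM (y axis) for the regions of Vmn1r, Vmn2r and Olfr genes and for all regions outside the vomeronasal families, with 1 point per mouse and the number of regions n under each set. FAD 2 is the highest mouse in every set of both tables, and Vmn1r lies above all other regions in each mouse in these sums. By the median region, Vmn1r was lower than all other regions in WT 1 (0.87 against 0.96) and in FAD-BIX 2 (1.25 against 1.51). It was higher in the other mice.

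After BIX01294, the family levels lay within the range of the FAD mice or close to it. Vmn1r stood at 1.92 and 2.78 in FAD and at 1.79 and 2.03 in FAD-BIX, a difference of -0.44 (exact permutation p = 0.667). Relative to all regions of the table it was -0.20, and 0.087 for Vmn2r. Vmn2r stood at 1.38 and 2.25 in FAD and at 1.75 and 1.56 in FAD-BIX, a difference of -0.16 (exact permutation p = 1.00). The groups overlapped in both families. Without the regions called in 3 or 4 libraries the differences were -0.55 and 0.070. Without those called in FAD 2 alone they were -0.15 and 0.19. Without FAD 2 the differences were -0.01 and 0.28, so that the sign for Vmn2r turned, and without FAD 1 they were -0.87 and -0.59. The FAD and WT comparison and this one share the FAD mice, so a high FAD mouse raises one difference and lowers the other.

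Within each mouse the Vmn1r regions were more enriched in sum than the Vmn2r regions, and the mean difference was near 0 without the recurrent regions. Over 115 regions found in both tables (64 Vmn1r and 51 Vmn2r, at least 50% reciprocal overlap), Vmn1r exceeded Vmn2r by 0.17 and 0.39 in WT, 0.63 and 0.22 in FAD, and 0.52 and 0.75 in FAD-BIX. The mean difference was 0.45 ± 0.23 (SD, n = 6 mice, log2), higher in 6 of 6 mice, with an exact two-sided sign-flip permutation p of 0.03125, the smallest that 6 mice can give. Adjusted by Benjamini-Hochberg over the 5 family comparisons, this exact permutation p was 0.156 and did not pass. Without the regions called in 3 or 4 libraries, 58 Vmn1r and 47 Vmn2r regions remained, and the difference was 0.01 (exact permutation p = 0.938), with 3 mice above 0 and 3 below. The median over regions differed by 0.12 (exact permutation p = 0.219).

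**Figure D4:**
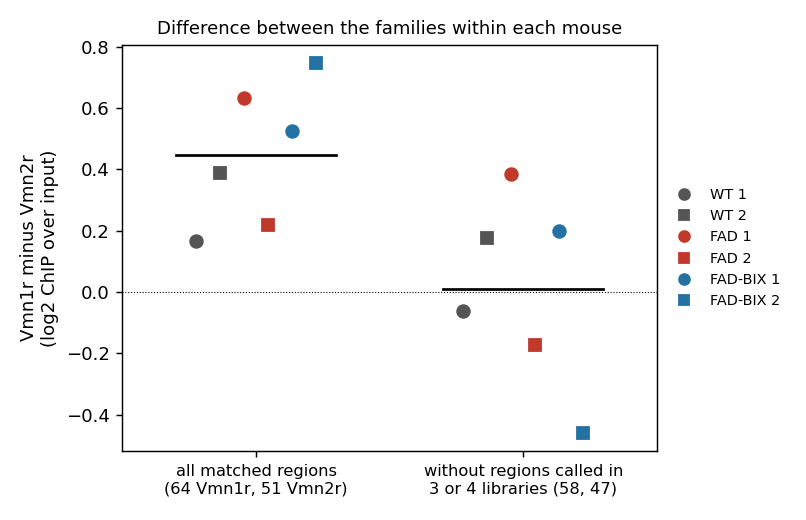
Difference between Vmn1r and Vmn2r in log2 ChIP over input within each mouse (y axis), over all 115 matched regions and without those called in 3 or 4 libraries. Points are mice and lines are means, 0.45 on the left with all 6 mice above 0 and 0.01 on the right.

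Tests of single regions compared FAD with WT across the whole table. No member passed, as adjusted p stayed at or above 0.832 among the 137 members that passed the filter on low counts, and 0 of all 27778 tested regions (0%) passed. At an unadjusted p under 0.05, 1 member was higher and 5 were lower, beside 0.918% and 4.97% of all tested regions. The median log2 fold was -0.05 over the members and 0.01 over all tested regions. The balance turned with the scaling. With library totals, 6 members were higher and 0 lower, beside 2.31% and 0.248% of all. With limma on ChIP over input, 4 were higher and 2 lower, beside 4.99% and 1.01%. DESeq2 gave 0 calls, and at that unadjusted p it had 0 higher and 2 lower. The authors' deposited table gives 4 members a p under 0.05, 3 higher and 1 lower, beside 2.67% of all regions (2.14% higher and 0.533% lower), and a q of 1 for each.

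The smallest p belonged to a region in the third exon of Vmn2r117 (chr17:23477602-23477890), 1851 bp from its start and close to the printed promoter stretch. It held 21 and 28 ChIP reads in WT and 9 and 4 in FAD. FAD was lower without overlap, with a log2 fold of -2.22 ± 0.65 (SE, edgeR's quasi-likelihood test, adjusted p = 0.832). It was -3.34 without FAD 1 (adjusted p = 0.0659) and -1.44 without FAD 2 (adjusted p = 0.999). Input reads were 13 and 5 in WT and 8 and 0 in FAD. Next came a region 1787 bp from the start of Vmn1r2, inside the recurrent block (chr4:3173667-3174074), with 25 and 39 ChIP reads in WT and 15 and 17 in FAD (log2 fold -1.38 ± 0.46). Vmn1r158 on chromosome 7 had 9 and 29 against 5 and 7 (log2 fold -2.02 ± 0.71), and Vmn1r206 on chromosome 13 had 19 and 28 against 13 and 14 (log2 fold -1.18 ± 0.50). Their adjusted p was also 0.832 by edgeR. The remaining lower region, near Vmn2r26 on chromosome 6, had a log2 fold of -1.50 ± 0.65 and was chosen after its value was seen. All 5 lower regions had been called in WT 2 alone.

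Higher in FAD was 1 region near Vmn1r90 (chr7:14556180-14556528), with 2 and 6 ChIP reads in WT and 12 and 27 in FAD (log2 fold 1.80 ± 0.79, edgeR, adjusted p = 0.842). Vmn2r53, Vmn1r16 and Vmn1r29 followed, with 5 and 7, 8 and 4, and 10 and 6 reads in WT and 15 and 26, 19 and 23, and 18 and 29 in FAD. All 4 had been called in FAD 2 alone, and groups did not overlap in any of them. Without the library labelled FAD 1, 2 members were called at an adjusted p under 0.05, beside 119 of 32835 regions (0.362%), and FAD 2 was then the lone FAD mouse, assumed to vary like the WT mice. These were a region near Vmn1r79 with 10 and 31 reads in WT and 0 in FAD 2 but 16 in FAD 1, and one in Vmn2r115 with 18 and 39 in WT, 4 in FAD 2 and 20 in FAD 1. In both, FAD 1 lay among the WT values.

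In FAD-BIX against FAD, no member passed either, with adjusted p of 0.897 or more among 139 tested members and 0 of 31055 tested regions (0%) called. At an unadjusted p under 0.05, 4 members were higher and 1 was lower, beside 3.93% and 1.18% of all tested regions. The median log2 fold was -0.05 over the members and 0.03 over all. With library totals 1 member was higher and 1 lower, beside 0.441% and 1.47%, and with limma on ChIP over input 1 and 3, beside 1.27% and 2.22%. DESeq2 gave 0 calls, and at that unadjusted p it had 1 higher and 0 lower. For this comparison the authors' deposited table gives a p under 0.05 to 4 members, 2 higher and 2 lower, beside 2.09% of all regions (0.778% and 1.31%), again with a q of 1.

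A region upstream of the start of Vmn2r52 (chr7:10187743-10188103) had the smallest p, with 1 and 6 ChIP reads in FAD and 21 and 13 in FAD-BIX (log2 fold 2.73 ± 0.92, edgeR's quasi-likelihood test, adjusted p = 0.897). Vmn2r120 gave 2 of the others. Its first intron (chr17:57539874-57540140) had 14 and 21 reads after BIX01294 beside 7 and 11 in FAD, and a region far before its start (chr17:57611173-57611695) held 8 and 11 against 28 and 14. A region of Vmn1r198 held 11 and 18 against 31 and 18 and so did not separate the groups. Lower in FAD-BIX was the Vmn1r90 region already described, with 12 and 27 reads in FAD and 2 and 5 in FAD-BIX (log2 fold -1.97 ± 0.93, edgeR, adjusted p = 0.897). Vmn2r53 and Vmn1r16, whose regions were also among those higher in FAD than in WT, had 15 and 26 and 19 and 23 in FAD and 5 and 6 and 7 and 6 in FAD-BIX. Both comparisons use the same FAD reads for these regions, which had been called in FAD 2 alone.

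Counting each cluster as 1 feature gave more reads per test. None of the 19 clusters passed for FAD against WT, and 0 of 3687 features (0%) did. At an unadjusted p under 0.05, 0 clusters were higher and 0 lower, by edgeR and by DESeq2, beside 1.3% and 3.23% of all features by edgeR. Folds ranged from -0.60 ± 0.41 (SE, log2) for Vmn2r84 to Vmn2r87 on chromosome 10 to 0.57 ± 0.37 for Vmn2r65 to Vmn2r79 on chromosome 7. The 3 blocks with the most reads had folds of -0.06 ± 0.28 for Vmn1r2 and Vmn1r3, -0.06 ± 0.33 for Vmn2r125 and 0.00 ± 0.26 for Vmn1r238. The direction for Vmn2r125 depended on the FAD mice, with -0.73 without FAD 1 and 0.39 without FAD 2, and for Vmn1r2 and Vmn1r3 these values were -0.37 and 0.18.

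For FAD-BIX against FAD, 0 of 18 clusters and 0 of 3978 features (0%) passed. At an unadjusted p under 0.05, 2 clusters were higher and 0 lower, beside 2.64% and 1.86% of all features, and DESeq2 gave the same counts. Both were Vmn2r clusters. Vmn2r1 to Vmn2r7 on chromosome 3 had 96 and 197 ChIP reads in FAD and 199 and 149 in FAD-BIX, a log2 fold of 0.65 ± 0.25 after TMM scaling (edgeR, adjusted p = 0.872). It was 0.38 without FAD-BIX 1, 0.31 with library totals, and -0.20 with library totals and without FAD 1. Raw reads of the groups overlapped there. Vmn2r84 to Vmn2r87 on chromosome 10 had 18 and 30 in FAD and 58 and 26 in FAD-BIX, a log2 fold of 1.19 ± 0.48 (edgeR, adjusted p = 0.872), and without FAD-BIX 1 it was 0.44. The blocks of Vmn1r2, Vmn2r125 and Vmn1r238 had folds of -0.08 ± 0.20, -0.24 ± 0.25 and 0.00 ± 0.19. Without FAD 1 the fold of Vmn2r125 was 0.35, and without FAD 2 it was -0.66.

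**Figure D5:**
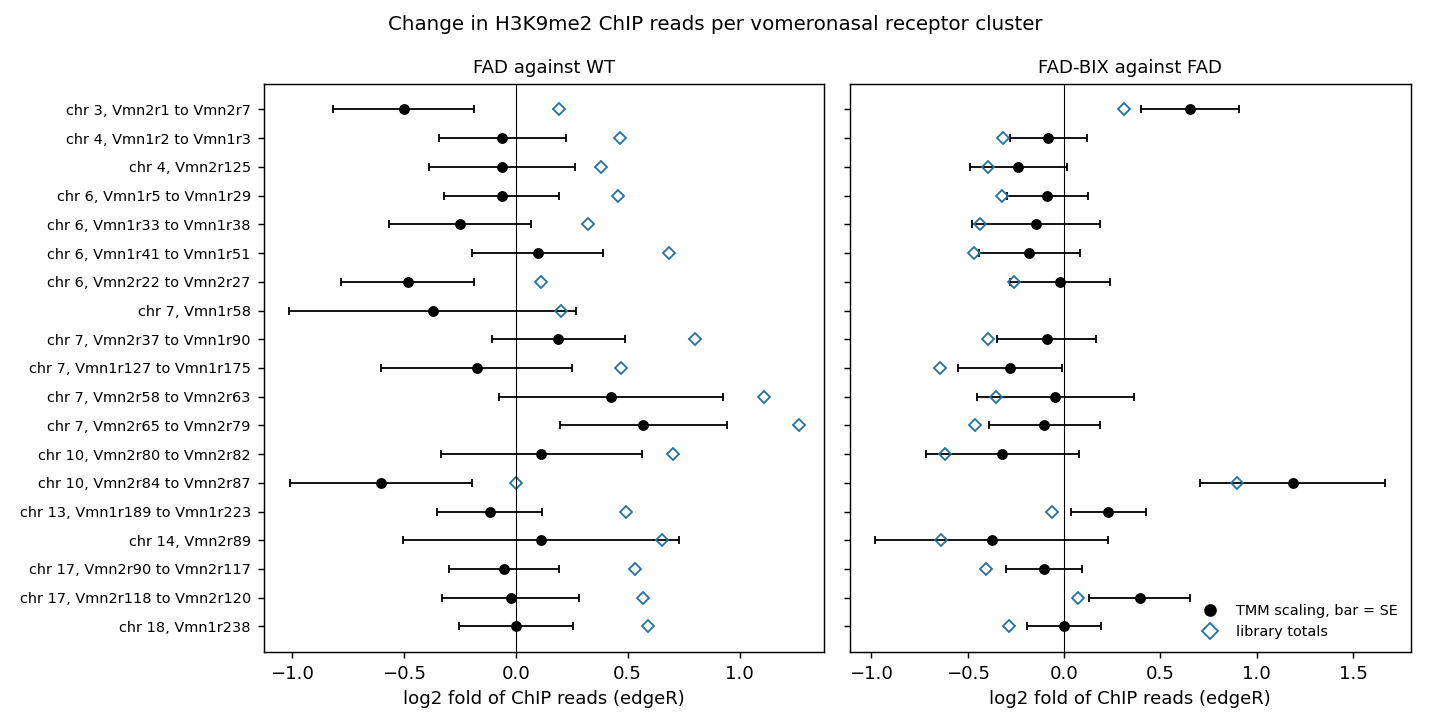
Log2 fold of ChIP reads per cluster (x axis) in each of the 2 comparisons, from edgeR with TMM scaling (filled points, bars are SE) and with library totals (open diamonds). With library totals most clusters move to the right for FAD and to the left for FAD-BIX, as do all regions.

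The scaling moved all clusters together. Library totals gave every cluster a higher fold than TMM for FAD against WT, and a lower one for FAD-BIX against FAD. TMM assumes that most regions do not change, while scaling to library totals keeps a shift shared by all regions. With library totals the median log2 fold was 0.49 over clusters and 0.61 over all features for FAD against WT, and -0.37 and -0.30 for FAD-BIX against FAD. In that scaling and without the library labelled FAD 1, an alternative chosen after seeing the data, 7 clusters were called higher in FAD, beside 551 of 4137 features (13.3%), and 3 were called lower in FAD-BIX, beside 74 of 4673 (1.58%). The 7 include Vmn1r238 (log2 0.94), Vmn1r189 to Vmn1r223 (0.89), Vmn2r90 to Vmn2r117 (0.87) and Vmn2r65 to Vmn2r79 (1.86). The 3 were Vmn1r238 (-0.63), Vmn2r90 to Vmn2r117 (-0.79) and Vmn1r127 to Vmn1r175 (-1.20). FAD 2 is then the lone FAD mouse, and it also had the highest ChIP over input across all regions.

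Genes that act with the receptors were covered in part. Of 33 genes of vomeronasal signalling and co-receptors, 6 had a region in the FAD and WT table and 8 in the other. Adcy2, an adenylyl cyclase, had 13 regions in each table, with 164 and 199 ChIP reads in WT, 205 and 261 in FAD. Ano2 and Ano1, calcium-activated chloride channels, had 7 and 2 regions. The formyl peptide receptor genes Fpr-rs3 and Fpr-rs6 and H2-M10.4, a co-receptor of Vmn2r neurons, had 1 region each. At an unadjusted p under 0.05 by edgeR, 1 of 20 tested regions in this list was lower in FAD, a region of Adcy2, beside 4.97% of all tested regions, and none was higher. In FAD-BIX none of 21 tested passed that level in either direction, beside 3.93% (higher) and 1.18% (lower) of all tested regions.

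Among 23 genes of vomeronasal neuron identity and wiring, 10 and 12 had a region. The axon guidance receptors Robo1 and Robo2 had 16 and 10 regions in the FAD and WT table, and the ephrin receptor Epha5 had 12. These genes are also used in cortex. Of 41 tested regions, 0 were higher and 2 lower in FAD (Robo1 and Epha5) at that unadjusted p, beside 0.918% and 4.97% of all tested regions. No region of either list passed the adjusted threshold.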

How the data were processed

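H3K9me2 ChIP and input libraries from 6 mice were analysed from the tables of 2 comparisons that the authors deposited. Per the submitters' processing notes, the tools were FastQC, Trimmomatic, BWA 0.7.12 and MACS2 2.1.0. The notes name the build mm9, but all 114 member genes that could be placed by position overlapped their RefSeq GRCm38.p6 location, so coordinates are taken as GRCm38. Reads were 50 bp single-end or 150 bp paired-end per the labels, and no source used here states which library was which.

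Per the file headers, the deposited tables hold read counts per region, RPM, fold enrichment (a ratio), log2 fold changes and p-values with q-values. Tested on the files, the authors' RPM is the count plus 1 times a constant per library, the deposited fold enrichment is the ratio of ChIP to input RPM, and every deposited q-value is 1. Regions were made by the authors from peak calls in single libraries.

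Counts were tested with edgeR 4.0.16 (quasi-likelihood, TMM scaling, filterByExpr) on each whole table in R 4.3.3, and p-values were adjusted by Benjamini-Hochberg and called under 0.05. DESeq2 1.42.0 and limma 3.58.1 were alternatives. Clusters joined member regions less than 2 Mb apart, which gave 19 clusters, 2 of them with both families. Family levels are log2 of summed ChIP RPM over summed input RPM per mouse, compared by exact permutation (SciPy 1.17.1). The scripts were tested on simulated data. Named regions were 4 per direction, ranked by p, and those called in 3 or 4 libraries. For clusters, those with at least 5 regions were described. The members and gene lists were chosen with earlier results of these data known. The 3 and 2 Vmn2r122 regions off the autosomes were left out of the comparisons. Replicate numbers did not pair the mice. Precision is set by 2 mice per group and by a median of 10 to 21 ChIP reads per member.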

Additional observations from a re-analysis of the deposited data

Results flagged for a closer look

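Vmn2r122 regions lay on an unplaced contig and entered no comparison, yet ChIP exceeded input there in every mouse. Over 3 regions, log2 ChIP over input was 1.58 and 1.80 in WT and 1.67 and 2.25 in FAD. Over the 2 regions of the other table it was 1.62 and 2.24 in FAD and 1.49 and 1.04 in FAD-BIX. The WT and FAD values overlapped, while the FAD-BIX values lay below both FAD values, and neither difference was tested.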

How the results depend on the processing

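The 4 comparisons of 2 mice with 2 cannot pass 0.05 under any setting, so only their direction is informative. All 89 alternatives to 18 named regions and clusters, which left out 1 library or used library totals, kept their direction. The regions and clusters had been picked by small p in the same data. A kept direction was thus likely in advance and does not test them. DESeq2, limma and library totals without FAD 1 were not among the alternatives. In the last of these settings the FAD-BIX fold of Vmn2r1 to Vmn2r7 turned from 0.65 to -0.20. Leaving out each library in turn gave 0 to 2 called regions for FAD against WT, the 2 without FAD 1. Library totals without FAD 1 called 7 clusters (FAD, WT) and 3 (FAD-BIX, FAD). The lone mouse left in a group is assumed to vary like the others. For FAD minus WT, the Vmn2r difference was -0.094 relative to all regions. For FAD-BIX minus FAD, the Vmn2r difference turned positive: 0.37 over overlapping regions, 0.0084 as a median, 0.25 without the top 5% by input, 0.19 without regions called in FAD ChIP 2 alone (a filter that uses the FAD 2 values themselves), 0.087 relative to all regions, 0.070 without regions called in 3 or 4 libraries (added after seeing the data), and -0.59 to 0.28 leaving out each mouse. The cause was not tested. Vmn1r minus Vmn2r was 0.12 as a median, 0.051 without the top 5% by input and 0.010 without recurrent regions. Leaving out each mouse gave 0.39 to 0.50 with an exact permutation p of 0.0625, the smallest that 5 mice allow. The overlap-only setting gave no value for Vmn1r, which has 1 such region.

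With a replicate block, 0 regions and 0 clusters of the members were called in either comparison. The labels share only a number between groups, and correlations of same-numbered deviations were 0.0552, 0.0503, -0.0389 and -0.0432. About 10 to 21 ChIP and 2 to 5 input reads per region limit what a single region can show.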

Other observations

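Pheromone ligand genes, whose products the vomeronasal receptors detect, also lay near H3K9me2 regions. Among FAD and WT regions, 26 belonged to 13 such genes. None of the 21 tested reached an unadjusted p under 0.05 by edgeR, beside 0.918% (higher) and 4.97% (lower) of all tested regions. Mup5, a major urinary protein gene, summed to 107 and 74 ChIP reads in WT and 107 and 117 in FAD over 3 regions. Among FAD-BIX and FAD regions, 36 belonged to 16 genes. Of 21 tested, 1 was higher in FAD-BIX at that unadjusted p and 0 lower, beside 3.93% and 1.18% of all tested regions. It was a region of the exocrine gland peptide gene Esp38 (log2 fold 1.66). Esp38 summed to 27 and 52 reads in FAD and 56 and 55 in FAD-BIX.

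Odorant receptor genes outnumbered the vomeronasal ones, with 568 regions for 422 Olfr genes and 718 for 497. At an unadjusted p under 0.05, 2 of 479 tested were higher and 12 lower in FAD, beside 0.918% and 4.97% of all tested regions, and 18 of 547 were higher and 8 lower in FAD-BIX, beside 3.93% and 1.18%, with 0 past the adjusted threshold in both. The trace amine receptors (Taar) had 1 region in each table.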
